A study of Mus musculus with 12 samples.

Results

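Acute-phase proteins are plasma proteins whose levels shift with inflammation. In the kidney, 10 mouse genes were followed: Serpina3n, Cp, Lbp, Fga, Fgb, Fgg, Hp, Orm1, Saa3 and Socs3. Of these, Socs3 encodes a signalling inhibitor rather than a plasma protein. The genes were chosen by name, with earlier results of these data known. For each, only probe sets annotated to no other symbol were taken, and where a gene had several, the brightest on average was used. They are 10 of the 19936 genes with such a probe set, and all 10 were among the 16480 genes bright enough to be tested.

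Whole frozen kidneys of mice on the FVB strain were measured at 6 months of age on 12 Affymetrix gene arrays, 1 mouse per array and 3 arrays per group. OVE-D6 mice were diabetic and lacked D6, OVE mice were diabetic with intact D6, D6 mice lacked D6 without diabetes, and FVB mice had neither change. D6, the product of Ackr2, is an atypical chemokine receptor that takes up inflammatory CC chemokines without signalling to the cell, and the question put to the arrays was how its loss altered renal gene expression in diabetes. The deletion was made in C57BL/6 and bred into FVB over at least 10 generations, so C57BL/6 sequence around it can remain in both knockout groups. OVE26 diabetes comes from a transgene expressed in the insulin-producing cells of the pancreas, and the knockout mice lack D6 in every cell rather than in kidney cells alone.

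In the liver, interleukin 6 and its relatives bind receptors that share the gp130 chain, activate the kinase JAK and the transcription factor STAT3, and raise the fibrinogen chains and many other plasma proteins. Interleukin 1 acts together with interleukin 6 on serum amyloid A and orosomucoid, and SOCS3, itself a STAT3 target, feeds back on the receptor. Outside the liver, epithelial and blood-derived cells can make several of the same transcripts, and injured kidney tubules are known to make fibrinogen.

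Values are log2 probe-set intensities as deposited, and 1 unit is a doubling. Differences were tested with limma over all tested genes, with Benjamini-Hochberg adjustment, and a gene is said to have risen or fallen where its adjusted p was at or below 0.05. Array medians lay between 6.84 and 6.93. As a mark of unexpressed probe sets, 95% of olfactory receptor genes had a mean at or below 5.93. All 25 tubule marker genes (proximal tubule, thick ascending limb, distal convoluted tubule and collecting duct) had group means above that level in every group. The Ackr2 probe set spanned 6.74 to 6.98 over the 6 arrays of mice lacking D6, against 6.81 to 7.04 over the 6 arrays with D6 intact, and whether the probe set lies in the deleted stretch was not analysed here, so it does not check the labels. Its neighbour on chromosome 9, Slc6a20b, spanned 11.13 to 11.26 in mice lacking D6, against 11.96 to 12.59 with D6 intact, without overlap. None of the 10 genes lies on chromosome 9. With 3 arrays per group, 1 array can decide a call, so calls that 1 OVE array decides are given with the range over the 12 fits that each leave out 1 array. Leaving out the OVE array nearest the other groups widens a difference by construction, and the array medians singled out no array.

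The fibrinogen genes Fgg, Fga and Fgb lie next to one another on mouse chromosome 3, and they are the members that share a product, so their promoters are shown. Each window runs from 250 bases before to 50 bases after the RefSeq gene start (GRCm38.p6), 5′ to 3′ on the gene's own strand. Capitals mark matches, on either strand, to the STAT motif TTCNNNGAA, the interleukin 6 response element core CTGGGAA and the C/EBP motif TTGCNNAA. The windows are chr3:83025903-83026202 on the plus strand for Fga, chr3:83049814-83050113 on the minus strand for Fgb and chr3:83007474-83007773 on the plus strand for Fgg.
Fga: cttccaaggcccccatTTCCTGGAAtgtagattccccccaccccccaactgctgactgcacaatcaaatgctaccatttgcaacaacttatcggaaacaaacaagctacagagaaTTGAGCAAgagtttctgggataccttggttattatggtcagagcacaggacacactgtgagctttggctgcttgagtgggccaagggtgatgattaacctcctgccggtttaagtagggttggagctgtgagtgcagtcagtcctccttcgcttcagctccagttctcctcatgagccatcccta
Fgb: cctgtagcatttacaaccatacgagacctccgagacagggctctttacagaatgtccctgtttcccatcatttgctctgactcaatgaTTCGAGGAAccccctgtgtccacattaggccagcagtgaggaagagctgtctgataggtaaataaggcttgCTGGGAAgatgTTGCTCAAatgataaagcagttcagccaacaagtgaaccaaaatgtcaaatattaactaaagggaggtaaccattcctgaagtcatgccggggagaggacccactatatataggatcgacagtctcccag
Fgg: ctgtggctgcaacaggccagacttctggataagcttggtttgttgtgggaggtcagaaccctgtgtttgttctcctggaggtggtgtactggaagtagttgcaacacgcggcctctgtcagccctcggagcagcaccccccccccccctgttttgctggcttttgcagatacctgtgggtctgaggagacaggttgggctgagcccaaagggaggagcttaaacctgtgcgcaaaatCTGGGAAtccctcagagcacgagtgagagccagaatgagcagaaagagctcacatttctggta

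The Fga window held a STAT match at -234 and a C/EBP match on the opposite strand at -135, both counted from the gene start. The Fgb window held all 3 motifs, with STAT at -162, the response element core at -91 and C/EBP at -80. The Fgg window held the response element core at -13 and neither of the other motifs. These are letter matches and not shown binding sites. The STAT motif is found in 8.3% of 32851 mouse promoter windows of this length, the response element core in 11.1% and the C/EBP motif in 10.8%. Windows were at hand for 7 of the 10 genes. Of those not printed, Socs3 held a STAT match at -154, Saa3 held a C/EBP match, and Serpina3n held none of the 3. Cp had 2 windows, 1 with a C/EBP match and 1 with none of the 3.

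**Figure D1:**
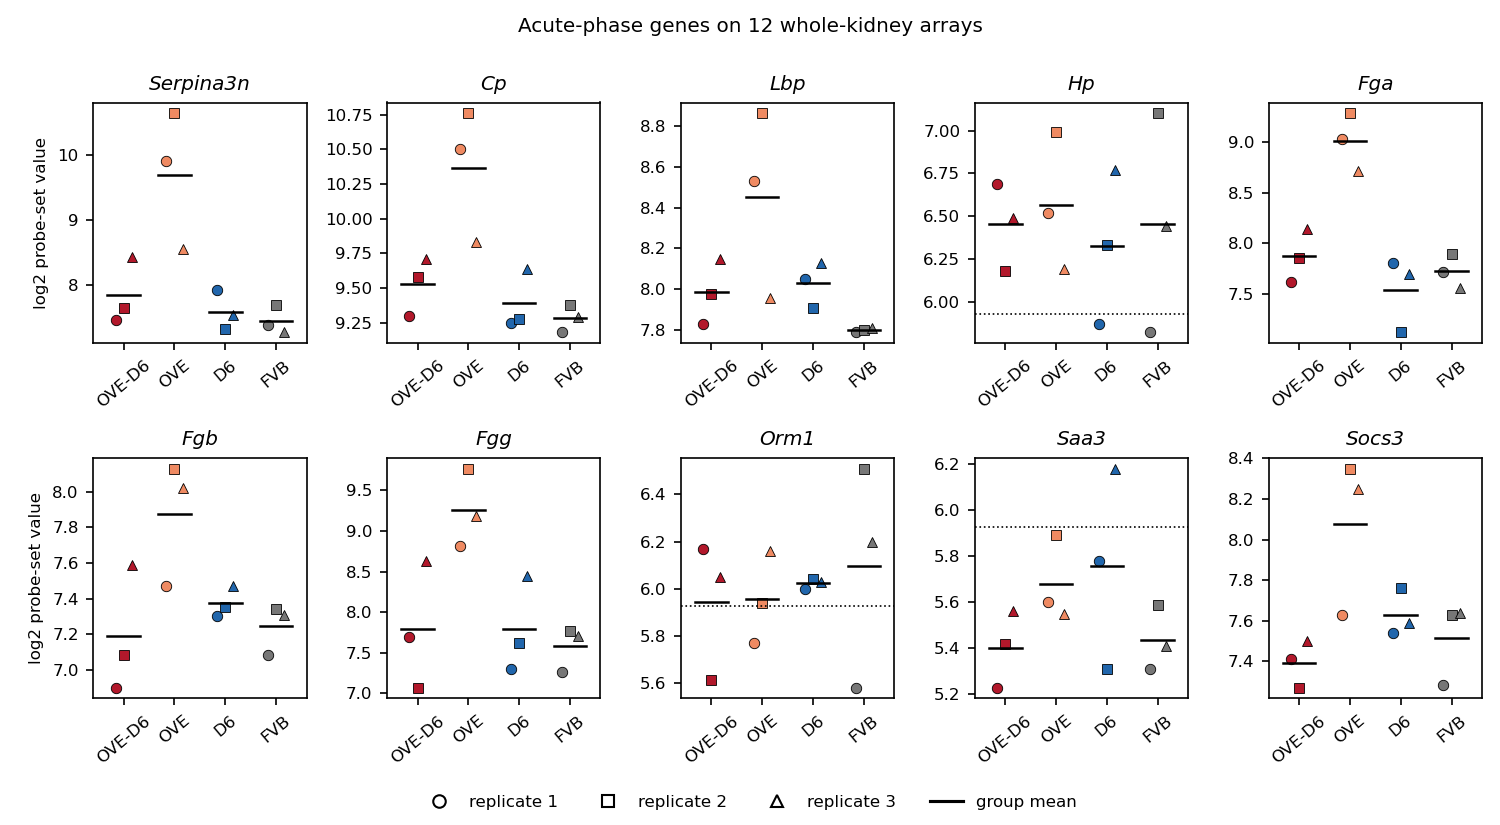
Log2 probe-set value (y axis, scaled per gene) of the 10 genes on each of the 12 arrays, in the order OVE-D6, OVE, D6 and FVB. Marker shape is the replicate and short lines are group means. The dotted line is 5.93, the level below which 95% of olfactory receptor genes lie. Serpina3n, Fga, Fgg and Cp stand apart in OVE, where OVE replicate 2 is the highest array, while Hp, Orm1 and Saa3 show no separate group.

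In diabetic kidneys with intact D6, 5 of the 10 genes rose against FVB kidneys: Serpina3n, Fgg, Fga, Cp and Lbp. They rose 4.79-fold, 3.21-fold, 2.43-fold, 2.11-fold and 1.57-fold, in that order. None of the 10 fell. Over all tested genes, 4.9% rose in the same comparison. Because the 10 genes were chosen with earlier results known, such shares, here and below, are a description and no test of the set. In OVE-D6 kidneys, set against OVE kidneys, all 10 differences were negative, as were 47.3% of those of all tested genes. Fga alone passed the test, beside 0.182% of all tested genes that fell.

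Serpina3n encodes a secreted serine protease inhibitor, one of the mouse counterparts of human α1-antichymotrypsin. It read 7.45, 7.64 and 8.43 in the OVE-D6 kidneys and 9.91, 10.65 and 8.55 in the OVE kidneys. It read 7.91, 7.31 and 7.53 in the D6 kidneys and 7.37, 7.68 and 7.26 in the FVB kidneys. All 3 OVE values lay above every other array, with OVE replicate 3 only a little above OVE-D6 replicate 3, and the other 3 groups overlapped. Between OVE and FVB the difference was 2.26 ± 0.41 (SE, n = 3 per group; adjusted p = 0.00934, limma). Between OVE-D6 and OVE it was -1.86 ± 0.41, or 3.63-fold lower, and did not pass (adjusted p = 0.0893, limma). Leaving out 1 array at a time, that second difference ran between -2.44 without OVE replicate 3 (adjusted p = 0.000634, limma) and -1.39 without OVE replicate 2 (adjusted p = 0.292, limma), and it passed in 1 of the 12 fits. Mouse Serpina3 genes are close copies of each other, and their transcripts can share probe signal. Serpina3a and Serpina3b, the other family members with a probe set of their own, had group means at or below 5.93 in every group, and Serpina3b differed by -0.33 ± 0.09 between OVE and FVB (adjusted p = 0.0398, limma).

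Cp encodes ceruloplasmin, the copper-carrying ferroxidase of plasma. Its values were 9.30, 9.58 and 9.71 in OVE-D6 kidneys, 10.50, 10.76 and 9.83 in OVE kidneys, 9.25, 9.28 and 9.64 in D6 kidneys, and 9.18, 9.38 and 9.29 in FVB kidneys. The OVE group again lay wholly above the others, and its lowest array, replicate 3, was 9.83 against 9.71 for the highest OVE-D6 array. Cp differed by 1.08 ± 0.20 between OVE and FVB (adjusted p = 0.00934, limma) and by -0.83 ± 0.20 between OVE-D6 and OVE (adjusted p = 0.104, limma). The OVE-D6 difference from OVE passed in 1 of the 12 fits that left out 1 array, and ran between -1.1 without OVE replicate 3 (adjusted p = 0.00125, limma) and -0.63 without OVE replicate 2 (adjusted p = 0.344, limma).

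Lbp encodes the lipopolysaccharide-binding protein, which hands bacterial lipopolysaccharide to CD14. It read 7.83, 7.98 and 8.15 in OVE-D6 kidneys and 8.53, 8.86 and 7.96 in OVE kidneys, which overlapped through OVE replicate 3. It read 8.05, 7.91 and 8.13 in D6 kidneys and 7.79, 7.80 and 7.81 in FVB kidneys, the tightest group of any of the 10 genes in these data. All 3 other groups lay wholly above FVB. The OVE rise was 0.65 ± 0.17 (adjusted p = 0.0405, limma), and it passed in only 3 of the 12 fits that left out 1 array, those without OVE replicate 3, OVE-D6 replicate 1 or OVE-D6 replicate 3. The difference between D6 and FVB was 0.23 ± 0.17 and did not pass (adjusted p = 1, limma), and that between OVE-D6 and OVE was -0.46 ± 0.17 (adjusted p = 0.243, limma). This last difference was -0.71 without OVE replicate 3 (adjusted p = 0.00549, limma) and -0.26 without OVE replicate 2 (adjusted p = 0.608, limma), and it passed in 1 of the 12 fits.

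The fibrinogen genes encode the Aα, Bβ and γ chains of the clotting protein that thrombin turns into fibrin. Fga, for the Aα chain, read 7.62, 7.85 and 8.14 in OVE-D6 kidneys, 9.03, 9.28 and 8.71 in OVE kidneys, 7.80, 7.12 and 7.70 in D6 kidneys, and 7.72, 7.89 and 7.56 in FVB kidneys. Every OVE array was above every array of the other groups, and those 3 groups overlapped. Fga rose by 1.28 ± 0.19 in OVE against FVB (adjusted p = 0.00438, limma). In OVE-D6 against OVE it fell by 1.14 on the log2 scale, 2.21-fold, with an SE of 0.19 (adjusted p = 0.0437, limma). This was the only one of the 10 to pass there. It passed in 2 of the 12 fits that left out 1 array, those without OVE replicate 3 or D6 replicate 2, with differences between -1.29 and -1.0 and adjusted p values between 0.0035 and 0.205. A second Fga probe set, not used for the gene because of its lower mean, read 6.11, 6.29 and 6.34 in OVE-D6 kidneys, 7.12, 6.91 and 6.59 in OVE kidneys, 6.31, 6.02 and 5.97 in D6 kidneys, and 6.24, 6.60 and 6.02 in FVB kidneys. OVE was the highest group on both probe sets, but on the second one FVB replicate 2 lay level with OVE replicate 3.

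Fgg, for the γ chain, varied more within groups. It read 7.69, 7.07 and 8.63 in OVE-D6 kidneys, 8.81, 9.77 and 9.19 in OVE kidneys, 7.30, 7.62 and 8.45 in D6 kidneys, and 7.26, 7.77 and 7.70 in FVB kidneys. OVE stood above all other arrays, with OVE-D6 replicate 3 just below OVE replicate 1. The rise in OVE against FVB was 1.68 ± 0.38 (adjusted p = 0.0206, limma), and the difference between OVE-D6 and OVE was -1.46 ± 0.38, or 2.75-fold lower, without passing (adjusted p = 0.129, limma). The OVE rise in Fgg was lost without OVE replicate 2 (adjusted p = 0.0873, limma) and without any 1 of the FVB arrays (adjusted p between 0.0528 and 0.0674, limma).

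Fgb, for the Bβ chain, differed less. It read 6.90, 7.08 and 7.59 in OVE-D6 kidneys, 7.47, 8.13 and 8.02 in OVE kidneys, 7.30, 7.35 and 7.47 in D6 kidneys, and 7.08, 7.34 and 7.31 in FVB kidneys. OVE lay wholly above FVB, but OVE replicate 1 lay among the OVE-D6 arrays and level with the highest D6 array. The differences were 0.63 ± 0.18 between OVE and FVB (adjusted p = 0.0579, limma) and -0.68 ± 0.18 between OVE-D6 and OVE (adjusted p = 0.144, limma), and neither passed. The first of these passed in 2 of the 12 fits that left out 1 array, without OVE replicate 1 (0.83, adjusted p = 0.0219, limma) and without OVE-D6 replicate 3 (adjusted p = 0.0324, limma), and was 0.5 without OVE replicate 2 (adjusted p = 0.195, limma).

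Socs3 encodes the feedback inhibitor of gp130 signalling. It read 7.41, 7.27 and 7.50 in OVE-D6 kidneys, 7.63, 8.35 and 8.25 in OVE kidneys, 7.54, 7.76 and 7.59 in D6 kidneys, and 7.28, 7.63 and 7.64 in FVB kidneys. OVE-D6 was the lowest group, wholly below both OVE and D6, while OVE and FVB overlapped through OVE replicate 1. The differences were 0.56 ± 0.17 between OVE and FVB (adjusted p = 0.0612, limma), -0.68 ± 0.17 between OVE-D6 and OVE (adjusted p = 0.112, limma) and -0.23 ± 0.17 between OVE-D6 and D6 (adjusted p = 0.699, limma). Against FVB, the OVE difference passed in 1 of the 12 fits that left out 1 array, at 0.78 without OVE replicate 1 (adjusted p = 0.00852, limma), and was 0.42 without OVE replicate 2 (adjusted p = 0.208, limma). Between OVE-D6 and OVE it likewise passed in 1 fit, at -0.9 without OVE replicate 1 (adjusted p = 0.0192, limma), and was -0.54 without OVE replicate 2 (adjusted p = 0.37, limma). A second Socs3 probe set with a lower mean had group means of 6.48 in OVE-D6, 6.49 in OVE, 6.61 in D6 and 6.50 in FVB kidneys, so the 2 probe sets differ in whether OVE is highest.

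Hp, Orm1 and Saa3 passed in no comparison. Hp encodes haptoglobin, which binds free haemoglobin, and averaged 6.46 ± 0.26, 6.56 ± 0.41, 6.32 ± 0.45 and 6.45 ± 0.64 (SD, n = 3 each) in OVE-D6, OVE, D6 and FVB kidneys. Its highest value, 7.10, came from FVB replicate 2. Orm1 encodes orosomucoid, the α1-acid glycoprotein, and its group means lay between 5.94 and 6.10. Saa3, the serum amyloid A gene that mice express outside the liver, had group means between 5.4 and 5.76, and 1 of its 12 arrays, D6 replicate 3, was above 5.93. For these 3 genes the groups overlapped in every comparison. The largest of their differences between OVE and FVB was 0.24 ± 0.18 for Saa3 (adjusted p = 0.449, limma), beside 0.11 ± 0.31 for Hp (adjusted p = 0.856, limma) and -0.14 ± 0.20 for Orm1 (adjusted p = 0.712, limma). Values this near the level of unexpressed probe sets limit what can be read from Orm1 and Saa3, and the mouse orosomucoid genes are close copies whose signal can mix.

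**Figure D2:**
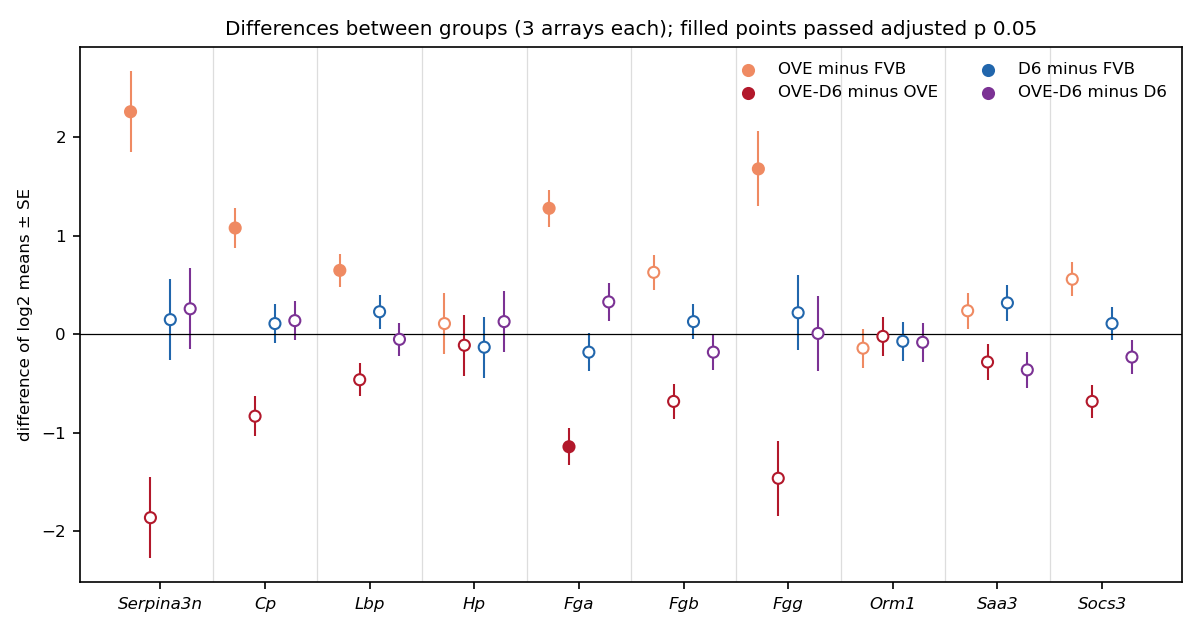
Log2 difference with its standard error (y axis) for each of the 10 genes (x axis) in the 4 pairwise comparisons, from limma with 3 arrays per group; filled points passed an adjusted p of 0.05. Filled points are Serpina3n, Lbp, Fga, Fgg and Cp for OVE minus FVB, and Fga for OVE-D6 minus OVE.

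The median difference of the 10 genes between OVE and FVB was 0.64, beside -0.018 over all tested genes, and 9 of the 10 were positive against 46.3% of all genes. At an unadjusted p under 0.05, 7 of the 10 differed in this comparison, as did 24.1% of all tested genes. Every OVE array was above every FVB array for 6 genes (Serpina3n, Lbp, Fga, Fgb, Fgg and Cp), beside 13.6% of all tested genes.

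The median difference between OVE-D6 and OVE was -0.68, beside 0.01 over all tested genes. At an unadjusted p under 0.05, 7 of the 10 differed, as did 14.8% of all genes, and all OVE-D6 arrays were below all OVE arrays for 5 genes (Serpina3n, Fga, Fgg, Cp and Socs3), beside 8.24%. Without OVE replicate 3, 4 of the 10 fell, beside 3.32% of all tested genes. Fga alone passed without D6 replicate 2, and Socs3 alone without OVE replicate 1. None passed in the other fits that left out 1 array, those without OVE replicate 2 or any FVB or OVE-D6 array among them. This comparison and the one between OVE and FVB share the 3 OVE arrays, so opposite signs in them are not separate observations.

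Without diabetes, loss of D6 went with no call among the 10 genes. Between D6 and FVB, differences ran between -0.18 for Fga and 0.32 for Saa3, and 0 of the 10 passed, beside 0.0121% of all tested genes. At an unadjusted p under 0.05 the count was also 0, beside 3.82%. Lbp was the 1 gene with all D6 arrays above all FVB arrays, which 5.59% of tested genes also showed.

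Between OVE-D6 and D6 kidneys, which compares diabetic with non-diabetic mice lacking D6, 0 of the 10 passed in either direction, beside 0.285% of all tested genes. No gene of the 10 reached an unadjusted p under 0.05, beside 9.98% of all genes. The differences ran between -0.36 for Saa3 (adjusted p = 0.558, limma) and 0.33 for Fga (adjusted p = 0.63, limma). Serpina3n differed by 0.26 ± 0.41 (adjusted p = 0.889, limma), Cp by 0.14 ± 0.20 (adjusted p = 0.867, limma) and Fgg by 0.01 ± 0.38 (adjusted p = 0.999, limma). Socs3 was the 1 gene with all OVE-D6 arrays below all D6 arrays, a pattern that 8.68% of tested genes had.

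The interaction sets the OVE-D6 minus D6 difference against the OVE minus FVB difference, and so tests whether the diabetic difference depended on D6. None of the 10 genes passed it, and neither did any other tested gene (0%). At an unadjusted p under 0.05 the count was 8 of the 10, all but Hp and Orm1, beside 9.99% of all tested genes. Serpina3n had the largest interaction at -2.00 ± 0.58 (adjusted p = 0.3, limma), followed by Fgg at -1.68 ± 0.53 (adjusted p = 0.329, limma), Fga at -0.96 ± 0.27 (adjusted p = 0.287, limma) and Cp at -0.94 ± 0.28 (adjusted p = 0.308, limma). Of the 12 fits that left out 1 array, the one without OVE replicate 3 passed Serpina3n (-2.58, adjusted p = 0.00391), Cp (-1.21, adjusted p = 0.00672) and Lbp (-0.94, adjusted p = 0.00855), beside 2.29% of all tested genes (limma). None of the 3 passed in the other 11 fits, and without OVE replicate 2 they were -1.53, -0.74 and -0.49, with adjusted p values of 0.534, 0.554 and 0.633 (limma).

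**Figure D3:**
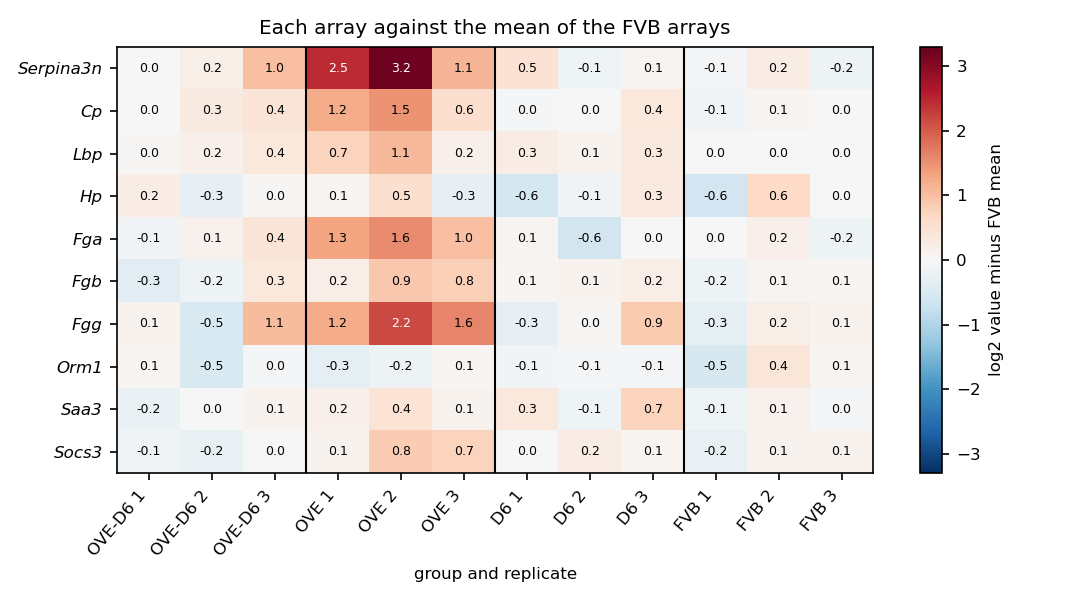
Log2 value minus the FVB mean of the same gene, for the 10 genes (rows) on the 12 arrays (columns, in the order OVE-D6, OVE, D6 and FVB). The OVE columns are the highest for Serpina3n, Fga, Fgg and Cp, and OVE-D6 replicate 3 is the highest of its group for 8 of the 10 genes.

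The 10 genes did not vary within groups in 1 order. In the OVE group, replicate 2 was the highest array for 9 of the 10 genes. The lowest OVE array was replicate 3 for Serpina3n, Hp, Lbp, Fga, Cp and Saa3, and replicate 1 for Fgb, Fgg, Orm1 and Socs3. In the OVE-D6 group, replicate 3 was the highest for 8 genes, all but Hp and Orm1. Pairs followed each other across the 12 arrays to different degrees. Pearson r was 0.96 for Serpina3n with Cp, 0.95 for Serpina3n with Fga, 0.91 for Fgb with Socs3 and 0.90 for Fgb with Fgg, but 0.54 for Lbp with Socs3. Pairs that held Hp, Orm1 or Saa3 ran between -0.27 (Lbp with Orm1) and 0.57 (Hp with Orm1). These r values are descriptions over arrays that share the 4 groups, with no test.

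Among all other tested genes, those most like a member over the 12 arrays were named by the same r. For Serpina3n they were Agap2 (0.986), Man1c1 (0.983) and Thbs2 (0.982). For Cp they were Mmp14 (0.98), Birc3 (0.978) and Clec10a (0.968), and for Lbp they were Ccl6 (0.962), Cd53 (0.96) and Ptpn22 (0.957). For Fga they were Sting1 (0.96), Colec12 (0.959) and Septin8 (0.956), and for Fgg they were Mical1 (0.952), F13a1 (0.938) and Lrg1 (0.935). For Fgb they were Zfp948, Actb and Rftn1 (0.934, 0.907 and 0.897) and for Socs3 they were Tlcd3a, Zeb2 and Septin11 (0.946, 0.91 and 0.897). The nearest gene to Hp was Vmn1r208 (0.896), those to Orm1 were Hoxb13 (0.942), the fat marker Plin1 (0.899) and Kcnk3 (0.89), and to Saa3 it was Atp1a4 (0.897). Vmn1r208, Hoxb13 and Atp1a4 had group means below 5.93 in every group, the level of unexpressed probe sets, which limits what their r values can mean.

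Of the ligands and receptors that act upstream, the interleukin 6 family had 9 tested genes, of which 1 rose and none fell between OVE and FVB. The counts of this and the following lists stand beside 4.9% of all tested genes that rose and 2.38% that fell, and their medians beside -0.018. Between OVE-D6 and OVE, 0.182% of all tested genes fell. The lists, too, were chosen with earlier results known, and some genes, such as Cd14, stand in more than 1 of them. The gene that rose was Osmr, the oncostatin M receptor chain that pairs with gp130. Osmr read 8.69, 9.16 and 9.0 in OVE-D6 kidneys, 9.53, 10.19 and 9.62 in OVE kidneys, 8.69, 8.74 and 8.97 in D6 kidneys, and 8.48, 8.82 and 8.73 in FVB kidneys. The OVE arrays lay above all others. The difference was 1.10 ± 0.17 between OVE and FVB (adjusted p = 0.00483, limma) and -0.83 ± 0.17 between OVE-D6 and OVE (adjusted p = 0.0774, limma). The ligand genes Il6, Il11, Lif and Osm had group means at or below 5.93 in all groups, and Il6 lay between 3.53 and 4.40 and was not tested. The other listed ligand genes, Clcf1 and Ctf1, had group means above 5.93 in all groups. Between OVE and FVB, Clcf1 differed by 0.33 ± 0.11 (adjusted p = 0.0945, limma) and Ctf1 by -0.28 ± 0.09 (adjusted p = 0.0902, limma), and neither passed. Il6ra differed by 0.36 (adjusted p = 0.158, limma) and Il6st, the gp130 gene, by 0.02 between OVE and FVB.

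Among 12 tested genes of JAK and STAT3 signalling, 1 rose and none fell between OVE and FVB, with a median difference of 0.09. Stat3 itself read 9.98, 10.20 and 10.21 in OVE-D6 kidneys, 10.58, 10.70 and 10.33 in OVE kidneys, 10.09, 10.08 and 9.95 in D6 kidneys, and 10.03, 9.94 and 9.94 in FVB kidneys. OVE again did not overlap the others. It differed by 0.57 ± 0.10 (adjusted p = 0.00799, limma) between OVE and FVB, and by -0.41 ± 0.10 (adjusted p = 0.112, limma) between OVE-D6 and OVE. Of 17 genes known as STAT3 targets, 9 rose and none fell between OVE and FVB, with a median difference of 0.59. They included Timp1, an inhibitor of matrix metalloproteinases, which averaged 7.59 in OVE kidneys and 5.71 in FVB kidneys, where no array was above 5.93, so that no fold is given. Others were Myc (2.25-fold) and the metallothioneins Mt2 and Mt1 (1.88-fold and 1.81-fold). Between OVE-D6 and OVE, 1 of these 17 fell, the metalloreductase gene Steap4 (-0.57 ± 0.09, adjusted p = 0.0393, limma). Of 9 genes of the interleukin 1 and TNF axis, 3 rose in OVE against FVB: the TNF receptor gene Tnfrsf1b, the interleukin 1 receptor antagonist Il1rn and the NF-κB inhibitor Tnfaip3 (1.78-fold, 1.56-fold and 1.48-fold). The FVB mean of Il1rn, 6.03, was near 5.93, which limits its fold. No gene of the interleukin 6, JAK and STAT3, or interleukin 1 and TNF lists passed between OVE-D6 and OVE, with median differences of -0.18, -0.07 and -0.35.

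Of 16 other tested positive acute-phase genes, 5 rose and 1 fell between OVE and FVB, with a median of -0.05. Lcn2, the siderophore-binding lipocalin that injured tubules secrete, read 7.08, 7.11 and 9.23 in OVE-D6 kidneys, 10.23, 11.51 and 9.77 in OVE kidneys, 7.63, 6.71 and 7.06 in D6 kidneys, and 6.74, 6.94 and 6.54 in FVB kidneys. The OVE arrays were the highest, and OVE-D6 replicate 3 lay between them and the rest. It differed by 3.76 ± 0.53, or 13.6-fold, between OVE and FVB (adjusted p = 0.00341, limma), and by -2.70 ± 0.53 between OVE-D6 and OVE (adjusted p = 0.071, limma). The other 4 that rose were Cd14, Serping1, Pzp and Itih3, and complement factor B (Cfb) fell (-0.33). Between OVE-D6 and OVE, Cd14, the lipopolysaccharide co-receptor to which Lbp delivers its ligand, fell (-1.22 ± 0.13, adjusted p = 0.00624, limma).

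Of 8 tested negative acute-phase genes, 2 rose and 1 fell between OVE and FVB. Apoc3 (1.72-fold) and Trf, the transferrin gene (1.69-fold), rose, and albumin (Alb) fell by 0.85 with an SE of 0.18 (adjusted p = 0.0174, limma). Between OVE-D6 and D6, 1 gene in all these lists passed, Serpina6, the corticosteroid-binding globulin, which was 9.2-fold higher (3.20 ± 0.59, adjusted p = 0.046, limma). It read 10.72, 11.84 and 11.37 in OVE-D6 kidneys and 8.03, 8.31 and 7.98 in D6 kidneys. In OVE kidneys Serpina6 read 10.45, 7.65 and 7.91, and in FVB kidneys 7.69, 6.41 and 7.12. Its difference between OVE and FVB, 1.59 ± 0.59, did not pass (adjusted p = 0.12, limma). No listed gene passed between D6 and FVB or in the interaction.

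Among 11 tested receptors and partners of fibrinogen, Lbp and Saa3, 6 rose and none fell between OVE and FVB, with a median difference of 0.58. Itgam, which with Itgb2 forms the leukocyte receptor for fibrinogen, was 2.60-fold higher and Itgb2 1.92-fold higher, beside Tlr2 (1.80-fold) and Cd14. The FVB mean of Itgam, 5.98, was near 5.93, which limits what its fold can mean. Of 19 coagulation and fibrinolysis genes, 4 rose and 1 fell, with a median of 0.02. F13a1, the fibrin cross-linking enzyme subunit, rose to a mean of 6.82 in OVE kidneys, against 5.84 in FVB kidneys, which is below 5.93 and gives no fold, while F13b, its carrier subunit, fell (-0.54). Thbd, the thrombin receptor thrombomodulin, rose 1.45-fold and fell in OVE-D6 against OVE (-0.58 ± 0.09, adjusted p = 0.0393, limma). In the haptoglobin, haem and iron list of 14 genes, Lrp1 rose, and Tfrc and Lrp2 fell.

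Of 12 cell-type marker lists, macrophage, injured-tubule and fibroblast markers had the largest median differences between OVE and FVB (1.41, 1.34 and 0.88). No gene rose in the proximal tubule, thick ascending limb, distal convoluted tubule, collecting duct, podocyte and endothelium lists. In these lists 1 of 9, 1 of 5, 3 of 4, 1 of 7, 1 of 5 and 0 of 7 fell, in that order. In whole tissue, fewer cells of a type and less RNA per cell cannot be told apart. The linear signal of 12 macrophage and monocyte markers, summed, was 2512, 2820 and 3090 in OVE-D6 kidneys, 8473, 9001 and 3826 in OVE kidneys, 2832, 3187 and 2808 in D6 kidneys, and 2652, 2067 and 2033 in FVB kidneys. OVE replicate 3 had the lowest of the OVE sums, as it had the lowest Serpina3n, Hp, Lbp, Fga, Cp and Saa3. Fgb, Fgg, Orm1 and Socs3 were instead lowest on OVE replicate 1. Lyz2, the brightest of these markers in OVE kidneys, read 11.97, 12.15 and 10.53 there. Of the 12 markers, 11 rose between OVE and FVB, and 4 (Ccr2, Lyz2, Mrc1 and Cd14) fell between OVE-D6 and OVE. Injured-tubule markers (9 genes) summed to 4482, 4797 and 6784 in OVE-D6 kidneys, 6693, 12145 and 6955 in OVE kidneys, 4478, 4306 and 4410 in D6 kidneys, and 3858, 4184 and 3756 in FVB kidneys. OVE replicate 2 was the highest of all, and OVE-D6 replicate 3 the highest of its group. Krt8, the brightest of the 9 genes, weighs heavily in these sums, with group means between 10.82 and 11.32. Between OVE and FVB, 6 of the 9 rose (Lcn2, Havcr1, Krt20, Cd44, Vcam1 and Krt8). Between OVE-D6 and OVE, 2 of the 9 (Cd44 and Vcam1) fell. Fibroblast and mesangial markers (7 genes, of which Acta2, Dcn and Lum rose between OVE and FVB) summed to 5653, 5314 and 7042 in OVE-D6 kidneys, 8553, 9215 and 6859 in OVE kidneys, 5460, 4885 and 5545 in D6 kidneys, and 4223, 5581 and 4783 in FVB kidneys. The part of the macrophage, injured-tubule and fibroblast markers in the acute-phase results was not tested.

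Hepatocyte markers bear on whether liver RNA was present. Of 12, 8 (Apoa2, Ahsg, F2, Cps1, Tat, Cyp3a11, Mup3 and Hrg) had group means at or below 5.93 in every group. The summed signal of all 12 ran between 2504 and 2953 in OVE-D6, 2515 and 3328 in OVE, 2493 and 2902 in D6, and 2746 and 3240 in FVB kidneys, with no group apart. Most of this sum came from Apob, with group means between 10.87 and 11.13, so the sum cannot show whether liver RNA was present. Group means of Alb, the next brightest, lay between 7.37 and 8.28. Of the 7 tested, Alb and Itih1 fell between OVE and FVB and none rose. Neutrophil markers were near background too, with 8 of 10 at or below 5.93 in every group and sums of 384 to 393 in OVE-D6, 414 to 459 in OVE, 377 to 432 in D6 and 393 to 418 in FVB kidneys. Of the 5 tested, 1 rose between OVE and FVB, Csf3r (0.60 ± 0.13, adjusted p = 0.0191, limma), from a mean of 5.97 to 6.57. Between OVE-D6 and OVE, Csf3r differed by -0.70 ± 0.13 and did not pass (adjusted p = 0.0578, limma). Fat markers summed to 2096, 1236 and 1876 in OVE-D6 kidneys, 1864, 1372 and 1662 in OVE kidneys, 912, 1019 and 1216 in D6 kidneys, and 1038, 2384 and 1442 in FVB kidneys. Within OVE-D6, D6 and FVB, though not within OVE, the arrays stood in the same order for this sum as for Hp, and within OVE-D6 and FVB, though not within OVE or D6, as for Orm1. Its part in the spread of Hp and Orm1 was not tested.

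**Figure D4:**
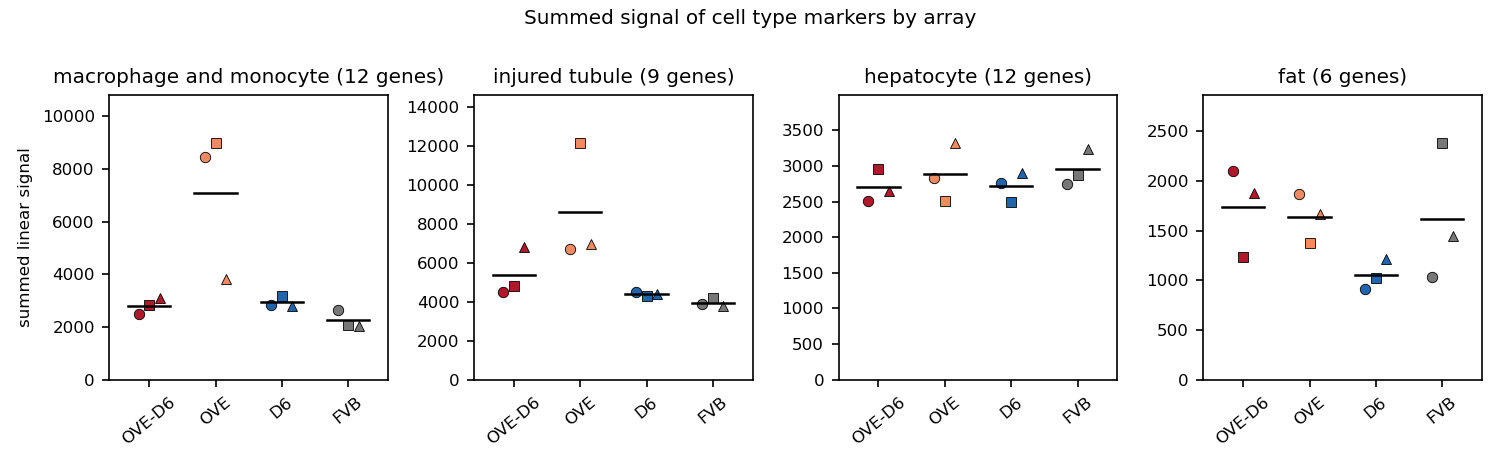
Summed linear signal (y axis, from 0) of the marker lists on each array, in the order OVE-D6, OVE, D6 and FVB; circles, squares and triangles are replicates 1, 2 and 3, and short lines are group means. The macrophage sums reach 8473 and 9001 on OVE replicates 1 and 2 and 3826 on OVE replicate 3. The hepatocyte sums, mostly Apob, lie between 2493 and 3328 on all 12 arrays.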

How the data were processed

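The deposited values were log2 probe-set intensities, 1 per probe set and array. Per the labels' protocols, 100 ng of RNA from each kidney (integrity number above 8.8, average 9.1) was labelled with whole-transcript kits. How the authors summarised and normalised the arrays is not given in the sources used here. The values were taken as already normalised.

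Of 35556 probe sets, 21789 had 1 gene symbol after updating through the GRCm38.p6 gene table, and 1621 had several. The probe set with the highest mean stood for its gene. Genes above the array's 25th percentile on at least 3 arrays were tested with limma 3.58.1 (R 4.3.3): lmFit over all 12 arrays with a mean per group, 5 contrasts, eBayes with defaults, and Benjamini-Hochberg adjustment over 16480 genes. The number of arrays limits the precision. Alternatives changed the filter, scaling, probe set rule, variance model, threshold and arrays used. The limma fit was tested on simulated data, for the OVE minus FVB difference and for the interaction. Figures used Python 3.11.15, pandas 2.3.3 and matplotlib 3.10.9.

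All 10 members are named, up to 4 passing genes of a pathway list, interleukin 6, JAK-STAT3 and Serpina3 genes as values, and up to 3 genes most like each member. The members and lists were chosen with earlier results of these data known. Motifs were searched in the RefSeq promoter table.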

Additional observations from a re-analysis of the deposited data

How the results depend on the processing

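No difference that passed for any of the 10 genes changed sign under any alternative. Of 975 values of a gene under an alternative, 931 kept their side of the threshold, 31 no longer passed and 13 newly passed. With intensities re-scaled by quantiles, 0 members and 9 genes passed between OVE-D6 and OVE. With the mean of a gene's probe sets, 0 members passed there. With a robust variance trend, 76 genes passed between OVE-D6 and D6. With array weights, 2 members (Fga and Serpina3n) and 91 genes passed between OVE-D6 and OVE, 4 genes between D6 and FVB, and 87 between OVE-D6 and D6. With the 2 compared groups alone, 440 genes passed between OVE and FVB, 0 members and 0 genes between OVE-D6 and OVE, and 1 gene between D6 and FVB. At an adjusted p of 0.01, 3 members and 245 genes passed between OVE and FVB, 0 members and 4 genes between OVE-D6 and OVE, and 14 genes between OVE-D6 and D6. At 0.1, 2206 genes passed between OVE and FVB, 2 members and 151 genes between OVE-D6 and OVE, and 112 genes between OVE-D6 and D6. The unaltered counts were 5 members and 1200 genes for OVE and FVB, 1 and 38 for OVE-D6 and OVE, 0 and 2 for D6 and FVB, 0 and 47 for OVE-D6 and D6, and 0 and 0 for the interaction. The cause of these changes was not tested.

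With the replicate number as a block, 0 members and 7 genes passed between OVE-D6 and OVE, 29 genes between OVE-D6 and D6, and 6 members and 971 genes between OVE and FVB. Deviations of same-numbered arrays from their group means correlated between -0.248 and 0.123 over 18 pairs. With 3 arrays per group, such correlations cannot settle whether equal numbers mark paired mice. Leaving out 1 array at a time, members that passed ran between 3 and 6 for OVE and FVB, 0 and 4 for OVE-D6 and OVE, 0 and 0 for D6 and FVB, 0 and 0 for OVE-D6 and D6, and 0 and 3 for the interaction. Genes that passed ran between 359 and 1901, 1 and 668, 2 and 3, 17 and 74, and 0 and 377, in the same order. Each highest gene count was reached without OVE replicate 3 (for D6 and FVB, also in 4 other fits). The 359 came without OVE replicate 2, the 1 without OVE-D6 replicate 1 or 2, and the 17 without D6 replicate 3 or OVE-D6 replicate 3. Lbp's rise was lost with quantile scaling (adjusted p = 0.0545), the block (0.0625) and the 2 groups alone (0.119). The fall of Fga was lost with quantile scaling (0.0513), the probe set mean (0.0536), the block (0.0744) and the 2 groups alone (0.252), and the rise of Fgg with the robust trend (0.0511), all with limma. A filter at the 50th percentile left 7 of the 10 genes tested. Another pseudocount does not apply to log2 values.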
